A study of Homo sapiens with 6 samples.

Results

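The polo-like kinases are a family of serine/threonine kinases, and the 4 members described here, PLK1, PLK2, PLK3 and PLK4, were taken by gene symbol from a deposited table of 25548 gene rows. RNA was sequenced from A375 cells, an established human melanoma line. The labels give 6 samples in 2 groups, with 3 samples treated with 1 µM BMH-21, a small molecule inhibitor of RNA polymerase I, for 6 h, and 3 control samples that received DMSO and are titled 0 h. Both groups are the same line in the same medium, so the effect of BMH-21 and that of 6 h of further culture cannot be told apart. "With BMH-21" below covers both.

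Polo-like kinases carry a kinase domain followed by polo boxes, which in most members dock on partner proteins and bring the kinase to its substrates. PLK1 drives entry into mitosis, spindle assembly and cytokinesis, and its transcript, like that of PLK4, belongs to the late cell cycle genes that the DREAM repressor complex can silence in arrested cells. PLK4 is the kinase that starts the duplication of centrioles, the cylinders at the core of the centrosome. PLK2 and PLK3 were first described in mouse cells as Snk and Fnk, immediate early genes switched on by growth factors, and both have been described as stress-responsive genes that p53 can induce. BMH-21 is used to provoke nucleolar stress, a condition in which p53 is stabilized.

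Each gene row holds 3 values per group in FPKM, a fragment count scaled to transcript length and library size. Their titles call them replicates, but the first was an estimate and the other columns its bounds, since the first was midway between them, within a relative tolerance of 0.0001, in 15872 of 15881 BMH-21 rows and 16203 of 16213 control rows with all values above 0. No value of a single library was analysed here, so neither a replicate SD nor a p-value can be stated. Bounds are the authors' own, at a confidence level not given in the sources used here, and "separate" below means that the bounds of both groups did not overlap, as a description of the table. FPKM holds no read totals, so the sequencing depth was unknown. Of 11 melanocyte lineage markers 6 were at 1 FPKM or more in each group, led by MIA at 298 FPKM with BMH-21 and 343 FPKM in control and by SOX10 at 90.0 FPKM with BMH-21 and 97.0 FPKM in control, while the pigment genes PMEL, MLANA, TYR, TYRP1 and DCT were under 1 FPKM. The 11 summed to 443 FPKM with BMH-21 and 518 FPKM in control, and MITF, at 5.31 FPKM with BMH-21 and 8.06 FPKM in control, and S100B, at 17.8 FPKM with BMH-21 and 28.7 FPKM in control, were separate and lower. Of 6 fibroblast markers 3 were at 1 FPKM or more with BMH-21 and 2 in control, and all 6 summed to 9.34 FPKM with BMH-21 and 4.71 FPKM in control. DCN and LUM were separate and higher with BMH-21, COL1A1, COL1A2 and COL3A1 were under 1 FPKM, and the part of these markers in the results was not tested. Keratinocyte markers summed to 12.9 FPKM with BMH-21 and 12.3 FPKM in control, and leukocyte markers to 5.06 FPKM with BMH-21 and 4.58 FPKM in control.

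The members differed in how far they stood from control, and a link of this to their roles was not tested. PLK2 and PLK3, both described as stress-responsive, were higher with BMH-21, PLK2 by 1.98-fold and PLK3 by 3.40-fold. PLK1 and PLK4, the mitotic and the centriolar member, were at 0.955 and 0.954 times their control estimates, with intervals that overlapped along 89.2% and 90.1% of the BMH-21 interval. Thus 2 of 4 members were separate, both in the upward direction, against a background of 3.58% of 12754 measured genes. Measured genes are those that reached 1 FPKM with BMH-21 or in control. Rows set aside by symbol as small or structural RNAs, such as snoRNAs, microRNAs and ribosomal RNAs, were left out. Separate and lower were 3.13% of measured genes and 0 members.

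The promoters of the 4 members are shown first. Whether any motif match in them bears on the levels was not tested. All 4 symbols matched the RefSeq promoter table on GRCh38.p14, in which a window runs from 250 bases before the annotated start to 50 after it. The authors' files rest on GRCh37, so these coordinates belong to the sequences and not to the deposited values. PLK1 is on chromosome 16 (chr16:23678739-23678888, plus strand), PLK2 on chromosome 5 (chr5:58460087-58460236, minus strand) and PLK3 on chromosome 1 (chr1:44800227-44800376, plus strand), and for these the 150 bases before the start are printed. For PLK4, on chromosome 4 (chr4:127880913-127880942, plus strand), bases 21 to 50 after the first of 3 annotated starts are printed. They hold its match to the CHR motif of the next paragraph, while another match, at -4, lies outside them. Capitals mark every match within the printed bases, on either strand, to the 7 motifs named in the next paragraph.
PLK1: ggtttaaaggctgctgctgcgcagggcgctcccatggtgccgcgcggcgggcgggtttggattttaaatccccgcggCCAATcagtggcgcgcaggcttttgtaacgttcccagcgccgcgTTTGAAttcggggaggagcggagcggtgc
PLK4: ggcaagcggcgggagattTTCAAAatggga
PLK2: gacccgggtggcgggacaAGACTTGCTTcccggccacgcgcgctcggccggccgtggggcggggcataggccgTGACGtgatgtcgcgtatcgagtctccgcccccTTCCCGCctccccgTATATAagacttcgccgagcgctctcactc
PLK3: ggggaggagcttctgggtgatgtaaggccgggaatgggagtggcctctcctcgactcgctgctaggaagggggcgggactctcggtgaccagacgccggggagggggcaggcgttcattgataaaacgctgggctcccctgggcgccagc

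PLK1 and PLK4 each held a match to the cell cycle genes homology region (CHR, searched as TTTGAA). DREAM and its activating relatives act on G2/M genes through this element. The match lay at positions -29 to -24 in PLK1, and at 39 to 44 on the opposite strand in PLK4, counted from 1 at the first transcribed base. A CHR match occurred in 15.2% of 35116 promoter windows of this length. That share is per window, and PLK4, with 3 windows, had more chances of a match than the other members. None was found in the PLK2 and PLK3 windows or in those of the other 2 PLK4 starts. PLK1 also held a CCAAT box (CCAAT) at -73, present in 34.6% of windows, and the window of the third PLK4 start held one at -86 on the opposite strand. PLK2 held a TATA box (TATAAA or TATATA) at -30, present in 13.7% of windows, a cyclic AMP response element half-site (TGACG) at -77, in 24.6%, and E2F sites (GCGGGAA) at -44 and -214, in 6.55%. A p53 half-site lay at -132 in PLK2, and 6.63% of windows held at least 1. The half-site of the cyclic AMP response element was also met at -4 in PLK4. The PLK3 window held no match to any of the 7, the last of which was the serum response CArG box, found in 1.29% of windows. None of the matches in the 4 genes overlapped another, and a match describes these letters without showing a bound factor.

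**Figure D1:**
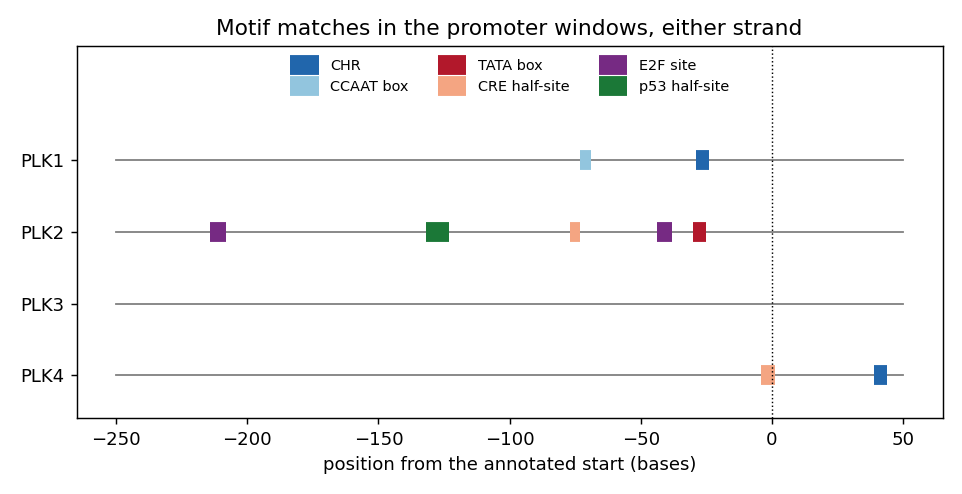
Positions of motif matches on either strand in the promoter window of each member (horizontal axis, bases from the annotated start, dotted line at the start; the first of 3 starts for PLK4). CHR matches appear in PLK1 and PLK4, the TATA box and p53 half-site in PLK2 alone, and no match in PLK3.

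At the other end of the transcript, the members were compared for AU-rich elements, short 3′ sequences known for the rapid decay of immediate early messages. In the GENCODE 29 transcripts used here the strict AU-rich nonamer (TTATTTA followed by a pair of A or T) occurred once in the 3′ untranslated region of PLK2 and 2 times in that of PLK3, against 0 in PLK1 and 0 in PLK4. Of 18456 protein-coding genes, 17.7% held at least 1. The first nonamer of each is shown in capitals within 30 bases, from base 2847 to 2876 of the PLK2 transcript and from base 2401 to 2430 of the PLK3 transcript.
PLK2: taataaactttTTATTTATTacagcccaaa
PLK3: atggaccacttTTATTTATTgtcagacact

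The shorter core ATTTA was found 2 times in PLK2, 3 times in PLK3, 4 times in PLK4 and 0 times in PLK1. Per kilobase of 3′ untranslated region this came to 3.33 in PLK2, 9.62 in PLK3 and 6.12 in PLK4, against a median of 1.48 over all genes. PLK3, with 312 bases, and PLK1, with 304 bases, had the shortest of these regions, and those of PLK2 and PLK4 were 601 and 654 bases long. The core thus did not divide the members the way their levels did, since PLK4 carried it too.

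PLK3, a kinase of stress responses whose reported substrates include CHEK2 and JUN, stood furthest from control. Its estimate was 16.2 FPKM with BMH-21 (bounds 12.9 to 19.5) and 4.76 FPKM in control (bounds 3.64 to 5.88). The intervals did not meet, the lower bound with BMH-21 being 2.20 times the upper bound in control. On the log2(FPKM + 1) scale the difference was 1.58 ± 0.40, the ± term being a half-width that joins the bounds of the 2 groups. It ranked 42 among 12754 measured genes from the most raised, and 0.917% of them were higher by at least 2-fold on that scale, among the members PLK3 alone, while 0.259% were lower by as much and no member was. The gene overlaps TCTEX1D4 on the opposite strand, at 2.72 FPKM with BMH-21 (bounds 0.650 to 4.79) and 1.13 FPKM in control (bounds 0.245 to 2.02). The libraries were made with a stranded kit, but the sources used here do not state whether counting used strand. The part of that gene in the PLK3 estimate was not tested.

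PLK2, which acts at neuronal synapses and has a role in centriole duplication, was at 75.1 FPKM with BMH-21 (bounds 61.7 to 88.5) and 37.9 FPKM in control (bounds 31.0 to 44.7). These intervals were separate as well, with the lower bound in BMH-21 at 1.38 times the upper bound in control. Its log2 difference was 0.97 ± 0.36, just under the 2-fold line, at rank 129 from the top. The differences of PLK2 and PLK3 exceeded their half-widths upward, as did those of 7.19% of measured genes, and no member exceeded it downward, against 7.06% of genes. No annotated gene overlaps PLK2 in GENCODE 29. In FPKM the added amount was larger for PLK2 than for PLK3, although the fold was smaller.

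PLK1, the mitotic kinase that Aurora A and its cofactor Bora switch on, was at 58.8 FPKM with BMH-21 (bounds 48.1 to 69.5) and 61.6 FPKM in control (bounds 50.4 to 72.8). Its log2 difference of -0.07 ± 0.37 allows a range from -0.43 to 0.30, so the bounds do not show equal levels. PLK4 was at 9.97 FPKM with BMH-21 (bounds 8.13 to 11.8) and 10.5 FPKM in control (bounds 8.49 to 12.4). The difference of -0.06 ± 0.35 spans -0.41 to 0.29. Both estimates lay slightly under control and below the median difference of all measured genes, which was 0.03, and 34.8% of genes had a lower difference than PLK1 and 35.3% a lower one than PLK4. ERN2, which overlaps PLK1 on the opposite strand, was at 0.0240 FPKM with BMH-21 and 0.0232 FPKM in control. GENCODE 29 also places the antisense gene AC008870.3 over PLK1 and the small RNA gene RNU6-583P over PLK4 on the same strand, for which no values were used here. In RNA from whole cultures, a shift in the share of cells in mitosis and a change of PLK1 or PLK4 RNA per cell cannot be told apart.

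**Figure D2:**
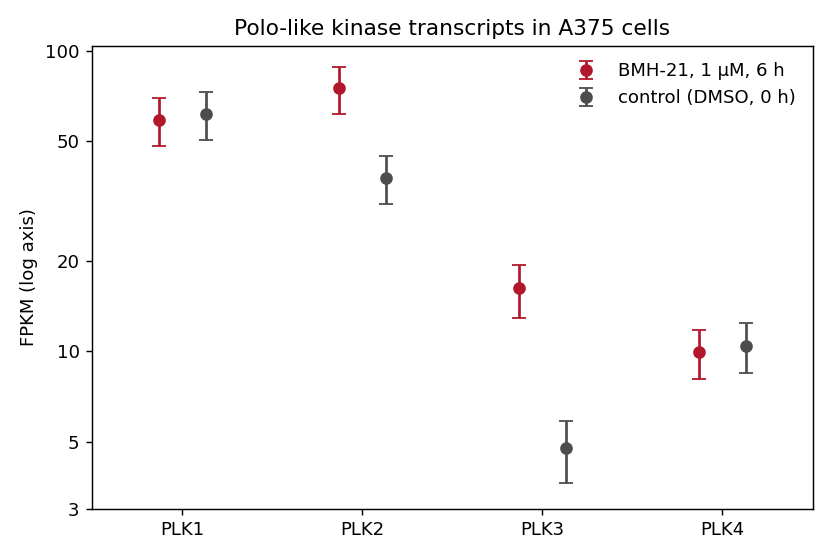
FPKM estimates (points, log axis) with the authors' lower and upper bounds (bars) of the 4 polo-like kinases with BMH-21 (left of each pair) and in control. PLK2 and PLK3 stand clear of their control intervals, while the PLK1 and PLK4 pairs nearly coincide.

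Set against each other, the members fell into a raised pair and a level pair. Of 6 pairs of members, 5 had log2 differences further apart than their combined half-width. PLK3 minus PLK1 was 1.64 ± 0.54, PLK3 minus PLK4 1.64 ± 0.53, PLK2 minus PLK1 1.04 ± 0.52 and PLK2 minus PLK4 1.03 ± 0.51. PLK3 exceeded PLK2 by 0.61 ± 0.54, a narrow margin over the half-width. PLK1 minus PLK4 was -0.0034 ± 0.51.

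The order of levels within the family differed between the groups, and since FPKM is per length the levels of different genes can be set side by side. With BMH-21 the order was PLK2, PLK1, PLK3 and PLK4. In control it was PLK1, PLK2, PLK4 and PLK3. All neighbours in these orders were separate within their group except PLK2 and PLK1 with BMH-21, whose bounds overlapped. The estimate of PLK2 was 1.28 times that of PLK1 with BMH-21 and 0.614 times in control. PLK3 stood at 1.63 times PLK4 with BMH-21 and at 0.455 times in control. The estimate of PLK1 was 5.90 times that of PLK4 with BMH-21 and 5.89 times in control. With a combined half-width of 0.51 on the log2 scale, the bounds do not show that this ratio was equal.

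Summed over the family, the estimates came to 160 FPKM with BMH-21 and 115 FPKM in control, a ratio of 1.40. PLK2 made up 46.9% of the sum with BMH-21 and 33.0% in control, and PLK3 made up 10.1% with BMH-21 and 4.15% in control. PLK1 made up 36.7% with BMH-21 and 53.7% in control, and PLK4 6.23% with BMH-21 and 9.11% in control. The higher sum came from PLK2 and PLK3, since the PLK1 and PLK4 estimates were both slightly under control.

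**Figure D3:**
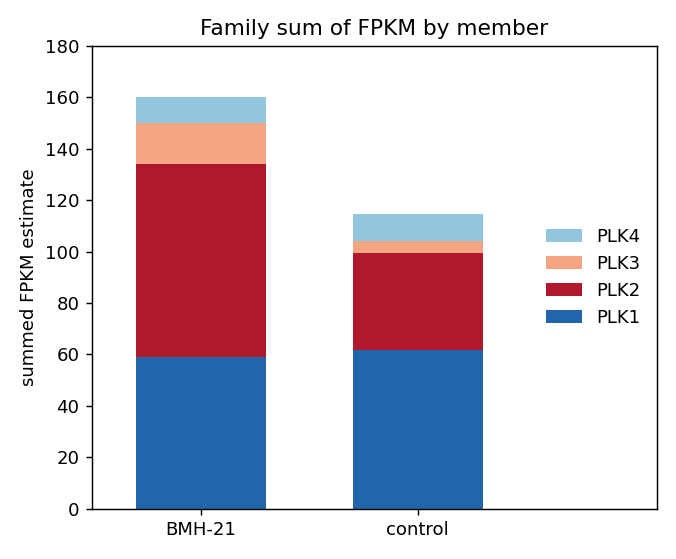
Stacked FPKM estimates of the 4 members with BMH-21 (left bar) and in control (right bar). The sum is 160 FPKM with BMH-21 against 115 FPKM in control, and the PLK2 and PLK3 blocks account for the taller bar.

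Genes that act on or beside PLK1 at mitotic entry mostly differed from control by less than their half-widths. Of 19 measured genes of PLK1 activation and mitotic entry 0 were separate, with a median log2 difference of -0.02 against 0.03 over all measured genes. Over all measured genes 3.58% were separate and higher and 3.13% lower, so 0 in a list this short lies near that share. AURKA, the kinase that phosphorylates the PLK1 activation loop, had the largest difference of the list (0.34 ± 0.37). Its estimate was 78.7 FPKM with BMH-21 and 62.0 FPKM in control. The cyclin CCNB1 was next by difference, at 123 FPKM with BMH-21 and 112 FPKM in control. BORA, the Aurora A cofactor, was at 5.19 FPKM with BMH-21 and 5.79 FPKM in control with wide bounds (-0.13 ± 1.54). FOXM1, a transcription factor of G2/M genes, was at 37.8 FPKM with BMH-21 and 35.5 FPKM in control. PKMYT1, which holds CDK1 inactive before mitosis, had the lowest difference of the list, at 11.9 FPKM with BMH-21 and 18.9 FPKM in control. That difference of -0.62 ± 0.58 just passed the half-width although the intervals overlapped. MASTL, the Greatwall kinase that restrains a phosphatase in mitosis, was at 9.78 FPKM with BMH-21 and 12.8 FPKM in control.

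Of 29 measured docking partners and substrates of PLK1 0 were separate as well, with a median of 0.03. The shares over all measured genes were 3.58% separate and higher and 3.13% lower. ESPL1, the separase that cuts cohesin, had the largest difference of the list, at 17.2 FPKM with BMH-21 and 13.3 FPKM in control. Next by difference was SGOL1, the shugoshin that shields cohesin, at 10.1 FPKM with BMH-21 and 8.42 FPKM in control. FBXO5, the inhibitor of the anaphase-promoting complex that PLK1 marks for destruction, was at 11.5 FPKM with BMH-21 and 16.0 FPKM in control (-0.45 ± 0.37). CLSPN, the checkpoint mediator claspin, was at 8.12 FPKM with BMH-21 and 10.2 FPKM in control. Of 14 subunits and partners of the DREAM and MuvB complexes 0 were separate either (median 0.02), with E2F5 at 7.07 FPKM with BMH-21 and 6.21 FPKM in control, DYRK1A at 13.2 FPKM with BMH-21 and 11.7 FPKM in control, TFDP2 at 3.71 FPKM with BMH-21 and 4.74 FPKM in control and RBL1 at 7.21 FPKM with BMH-21 and 8.82 FPKM in control.

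Around PLK4, 1 of 29 measured genes of centriole duplication was separate and higher, 0 were lower, and the median was 0.04. These counts lay near the shares over all measured genes, 3.58% separate and higher and 3.13% lower. The separate gene was CCP110, which caps the distal end of centrioles, at 28.6 FPKM with BMH-21 (bounds 23.5 to 33.7) and 12.7 FPKM in control (bounds 10.4 to 15.1), a ratio of 2.25. RBM14, described as a suppressor of centriole assembly outside the normal cycle, had the next largest difference, overlapping but beyond its half-width (0.65 ± 0.56). Its estimate was 26.2 FPKM with BMH-21 and 16.3 FPKM in control. The scaffolds that recruit PLK4 were CEP152 at 6.58 FPKM with BMH-21 and 5.66 FPKM in control and CEP192 at 7.14 FPKM with BMH-21 and 9.09 FPKM in control, the lowest difference of the list at -0.31 ± 0.34. STIL, the PLK4 substrate and activator, was at 8.59 FPKM with BMH-21 and 9.30 FPKM in control, and SASS6, the protein of the centriolar cartwheel, at 9.08 FPKM with BMH-21 and 9.46 FPKM in control. CEP57 was at 18.7 FPKM with BMH-21 and 21.8 FPKM in control. Of 6 measured genes that report centrosome loss to p53 or act in the PIDDosome, 0 were separate. TRIM37 was at 16.0 FPKM with BMH-21 and 14.4 FPKM in control and TP53BP1 at 15.8 FPKM with BMH-21 and 14.7 FPKM in control. CASP2, the PIDDosome caspase, was at 6.27 FPKM with BMH-21 and 8.50 FPKM in control, overlapping but just beyond its half-width (-0.39 ± 0.36). Its adaptor CRADD was at 8.56 FPKM with BMH-21 and 10.6 FPKM in control (-0.28 ± 0.41).

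All 17 measured substrates and partners reported for PLK2 and PLK3 had a smaller log2 difference than either kinase (median 0.01). Of them 0 were separate, against 3.58% higher and 3.13% lower of all measured genes, so that count lies near the background. JUN, a transcription factor of the AP-1 complex, was at 13.5 FPKM with BMH-21 and 11.1 FPKM in control. SIPA1L1, a synaptic protein that PLK2 targets for destruction in neurons, was at 2.33 FPKM with BMH-21 and 2.35 FPKM in control. The checkpoint kinase CHEK2 was at 6.45 FPKM with BMH-21 and 9.27 FPKM in control (-0.46 ± 0.38). RAP1GAP was at 0.648 FPKM with BMH-21 and 1.10 FPKM in control (-0.35 ± 0.26).

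Among 25 measured kinases of mitosis and its checkpoints outside the family, 0 were separate, against 3.58% higher and 3.13% lower of all measured genes. Their log2 differences lay between -0.62 for PKMYT1 and 0.34 for AURKA, around a median of -0.11, and PLK2 and PLK3 lay above all 25. PLK1 and PLK4 lay inside that range, with 12 kinases above and 13 below each of them. By level PLK1 was outranked by 2 of the 25 in each group, and PLK3 by 13 with BMH-21 and by 24 in control. ATR, the kinase that answers stalled replication, was at 14.3 FPKM with BMH-21 and 11.1 FPKM in control.

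Direct targets of p53 gave the comparison for PLK2 and PLK3, neither of which was put in the list. Like the other lists, it was written with earlier results of these data known, so its counts are a description and no independent support. Of 36 measured targets 31 were separate and higher and 0 lower, against 3.58% and 3.13% of all measured genes. The median was 1.27. GDF15, a stress cytokine, was at 56.3 FPKM with BMH-21 and 2.32 FPKM in control, and CDKN1A, the gene of the kinase inhibitor p21, at 329 FPKM with BMH-21 and 33.5 FPKM in control. On the authors' scaling NINJ1 was the only target of the list with a negative difference, at 12.4 FPKM with BMH-21 and 13.1 FPKM in control. The difference of PLK3 was exceeded by 14 of the 36 and that of PLK2 by 24, while PLK1 and PLK4 lay below 35 of them. All 4 members lay within the range of the list, which ran from -0.07 to 4.11. Of 32 measured immediate early genes, 6 were separate and higher and 1 was lower (median 0.19). BTG2, also on the p53 list, was at 36.1 FPKM with BMH-21 and 4.05 FPKM in control, and ATF3 at 14.6 FPKM with BMH-21 and 1.72 FPKM in control. MYC was at 3.61 FPKM with BMH-21 and 6.32 FPKM in control. The phosphatase gene DUSP2 was at 1.48 FPKM with BMH-21 and 2.64 FPKM in control, overlapping but beyond its half-width (-0.55 ± 0.42). Of these 32 genes, 2 had a larger difference than PLK3 and 4 a larger one than PLK2.

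Regulators of cell cycle exit held 1 higher and 2 lower separate genes of 19 measured (median -0.09). Over all measured genes 3.58% were separate and higher and 3.13% lower. The higher one of the list was CDKN1A. CDKN1B, which encodes p27, had the next largest difference, at 37.5 FPKM with BMH-21 and 32.6 FPKM in control with overlapping intervals. The lower ones were the S-phase activators E2F1, at 12.4 FPKM with BMH-21 and 21.3 FPKM in control, and E2F2, at 1.53 FPKM with BMH-21 and 4.29 FPKM in control. The CDKN1A estimate was 9.81-fold higher with BMH-21. In the same cultures the PLK1 and PLK4 estimates lay near control, with log2 differences that the bounds allow down to -0.43 and -0.41. A link between these genes and the members was not tested.

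**Figure D4:**
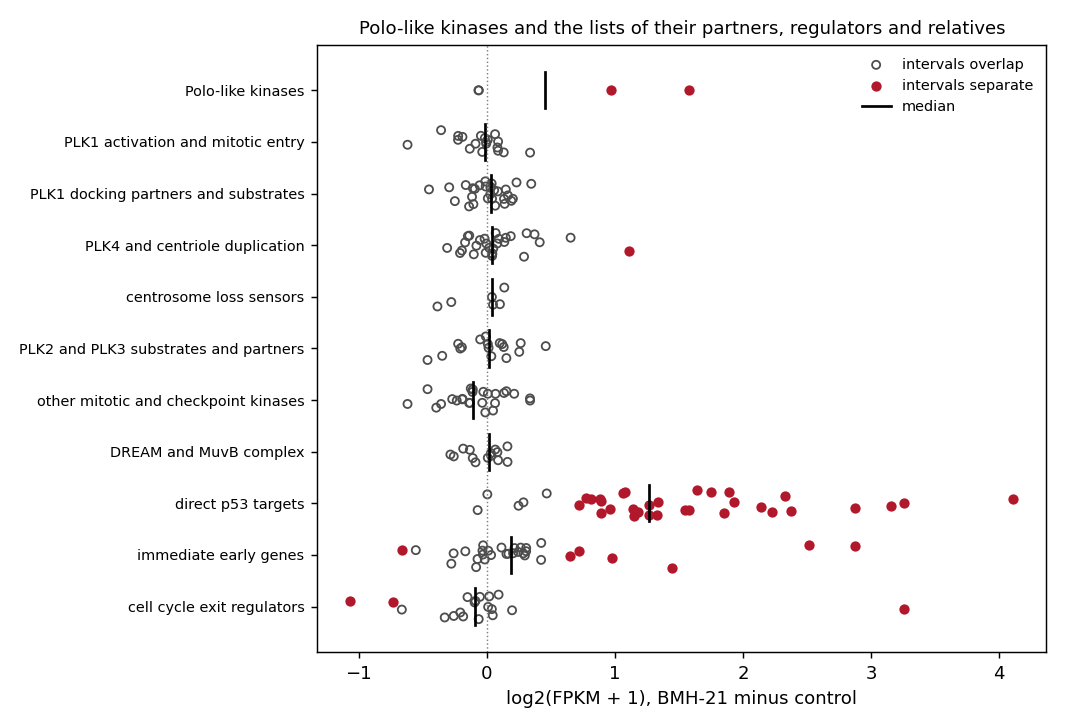
Difference of each measured gene in log2(FPKM + 1), BMH-21 minus control, for the polo-like kinases (top) and 10 lists; filled points have separate intervals, open points overlap, and the black line is the median. PLK2 and PLK3 lie among the p53 targets and to the right of the mitotic kinases, while PLK1 and PLK4 fall on one spot near 0.

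The genes whose pair of levels lay nearest to each member, over only 2 conditions, were named by distance on the log2(FPKM + 1) scale. For PLK3 they were VIPR1 (distance 0.12, at 17.7 FPKM with BMH-21 and 4.91 FPKM in control), SESN2 (0.13) and ZMAT3 (0.22). For PLK2 they were AEN (0.13, at 82.1 FPKM with BMH-21 and 38.3 FPKM in control), TNFRSF21 (0.13) and ISCU (0.13). SESN2, ZMAT3 and AEN stood on the p53 list. PLK1 was matched most closely by MAGED1, MAF1 and LSMD1, and PLK4 by KLHL5, GAS2L3 and ZFP64, all within 0.024. With 2 conditions such closeness says only that levels and differences were alike.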

How the data were processed

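Per the labels' protocols, Trizol was used for extraction and an Illumina TruSeq stranded kit for the libraries. The authors deposited 1 table of FPKM values. TopHat2, Cuffdiff 2.0 and GRCh37 are listed in the submitters' processing notes, with neither settings nor annotation given in the sources used here. Groups came from the treatment labels. A limma fit on log2(FPKM + 1) was planned only for columns that are libraries. The columns proved to be an estimate with bounds, so no test was made.

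Differences are log2(FPKM + 1) in BMH-21 minus control, on the authors' scaling. Half-widths of the 2 groups on that scale were added in quadrature. Of the measured rows, 11 with an estimate outside its bounds count neither as separate nor as overlapping. Named genes are the members, fixed direct partners, and up to 2 genes per list and direction by size of difference. Values of 3 genes that this rule names are not reported in the text. Members and the 10 lists were chosen with earlier results of these data known.

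Promoters are from RefSeq (GRCh38.p14) and 3′ regions from GENCODE 29, 1 transcript per gene by APPRIS rank and length, of at least 50 bases. Alternatives were other pseudocounts, scalings, filters and call rules. Python 3.11.15, pandas 2.3.3 and numpy 2.4.6 were used.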

Additional observations from a re-analysis of the deposited data

How the results depend on the processing

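No paired analysis was possible because the columns titled as replicates are an estimate and its bounds, and for the same reason no replicate could be left out in turn. The log2 differences kept their sign under each of the 5 other pseudocounts and scalings for all 4 members and moved by less than their half-widths, from 0.89 to 0.99 for PLK2, 1.52 to 1.77 for PLK3, -0.14 to -0.07 for PLK1 and -0.12 to -0.07 for PLK4. The members with separate intervals numbered 2 under both other scalings tried and by the rule that a difference exceed its half-width. Over all measured genes that rule gave 1817 genes, against 856 with separate intervals, and a minimum of 5 FPKM gave 548, as fewer genes were counted. The medians of the lists of PLK1 partners, PLK4 and centriole genes, PLK2 and PLK3 substrates and DREAM subunits lay within 0.05 of 0. All were below 0 under quantile normalization and when scaled to the total without small and structural RNAs. The median of PLK1 activation genes reached -0.09 under the former, and that of the kinases outside the family -0.17 under the latter. Unknown depth and the lack of single libraries limit every value.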

Other observations

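PLK5, the fifth gene of the family, which in humans encodes a shortened protein without a complete kinase domain, was listed at 0.0137 FPKM with BMH-21 (bounds 0 to 0.0455) and at 0 in control. PLK1S1, the older symbol of KIZ, which encodes the PLK1 substrate kizuna, was at 4.51 FPKM with BMH-21 (bounds 3.56 to 5.45) and 5.17 FPKM in control (bounds 4.10 to 6.24), with overlapping intervals. Both rows were named after their values were seen.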
